A study of Mus musculus with 13 samples.

Results

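Alzheimer's disease risk genes that work in endocytosis, endosomal sorting, lipid transport and cell adhesion were followed in microglia with and without Trem2. The genes were Bin1, Picalm, Cd2ap, Rin3, Sorl1, Abca7, Abi3, Cass4 and Ptk2b, chosen by name from human risk loci and matched to the data by Ensembl identifier. All 9 were found among the 52636 genes listed for each mouse, and all 9 were among the 17086 genes that passed the expression filter and were tested.

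Microglia take up debris, lipoproteins and β-amyloid by endocytosis and phagocytosis. Clathrin adaptors and curvature-sensing proteins bud the vesicle, RAB5 and its exchange factors build the early endosome, and retromer with its sorting receptors decides what is recycled. Actin-nucleating complexes and integrin-linked adhesion kinases shape the membrane around the cargo and move the cell towards it. Trem2 is a lipid and lipoprotein receptor of microglia and is itself a risk gene for the disease.

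RNA-Seq covered 13 mice aged 14 to 15 months, each of them 1 sample: 7 were PS2APP;Trem2wt, with 2 males among them, and 6 were PS2APP;Trem2ko, with 1 male. Every mouse, the PS2APP;Trem2wt controls included, carried the PS2APP transgenes, human forms of presenilin 2 and of the amyloid precursor that give plaque pathology, so no mouse without β-amyloid was compared. The PS2APP;Trem2ko mice also had the Trem2tm1(KOMP)Vlcg null allele, which was made on C57BL/6N and bred into the C57BL/6J transgenic line. CD11b+ CD45+ myeloid cells negative for Ccr2 and Ly6g were sorted from cortex and hippocampus, a gate that keeps perivascular macrophages as well as microglia. The comparison asks whether transcripts of these risk genes depend on Trem2 in cells from brains with plaques, and p-values measure the spread between mice. The sort did not select cells by their contact with plaques.

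Total counts on genes were 26120961 to 114857155 in PS2APP;Trem2wt mice and 41567025 to 120569609 in PS2APP;Trem2ko mice. Trem2 was 1040 ± 141 nRPKM (SD, n = 7) in PS2APP;Trem2wt microglia and 0.887 ± 0.734 nRPKM (SD, n = 6) in PS2APP;Trem2ko microglia, so every mouse fitted its genotype label. The nRPKM is the authors' length-corrected level per gene, scaled between mice by a size factor. Summed levels of 11 microglial markers were 13800 to 16900 nRPKM in PS2APP;Trem2wt and 14300 to 15800 nRPKM in PS2APP;Trem2ko mice. By edgeR 1 of the 11 was called lower in PS2APP;Trem2ko mice, against 1.53% of all tested genes. Border macrophage markers summed to 11.4 to 33.1 nRPKM and 19.1 to 50.1 nRPKM, and neutrophil markers to 13.2 to 246 nRPKM and 0.266 to 40.8 nRPKM, in the same order of genotypes. Astrocyte markers summed to 65.1 to 84.9 nRPKM in PS2APP;Trem2wt and 70.6 to 91.6 nRPKM in PS2APP;Trem2ko mice. For oligodendrocyte markers the sums were 56.2 to 73.9 nRPKM and 51.4 to 66.5 nRPKM. In these bulk samples, fewer cells of a type and less RNA per cell cannot be told apart.

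None of the 9 risk genes passed the test for a difference between the genotypes. With edgeR's quasi-likelihood test 0 of 9 reached an adjusted p of 0.05 or less, against 2.04% of all 17086 genes tested, and 0 of 9 had an unadjusted p under 0.05, against 14.8% of all genes. With the further requirement of a 2-fold change, 0 of 9 passed against 0.743% of all genes. By voom+limma 0 of 9 were called, against 2.55% of all genes, and by DESeq2 also 0 of 9, against 4.98%. The adjusted p-values of the 9 genes were 0.461 to 0.877 in edgeR, 0.428 to 0.885 in voom+limma and 0.404 to 0.878 in DESeq2. The levels of the genotypes overlapped for every risk gene, both in nRPKM and in TMM-scaled CPM (counts scaled by library size). In TMM-scaled CPM only 1.64% of all tested genes did not overlap, so overlap does not set the 9 risk genes apart. The estimates were lower in PS2APP;Trem2ko microglia for 5 risk genes and higher for 4. The largest difference was 0.21 on the log2 scale in size, and the median size was 0.10 over the 9 genes, compared with 0.16 over all tested genes and 0.10 over the 8062 genes with a mean of at least 3 nRPKM. The median standard error was 0.08 for the risk genes and 0.15 for all tested genes. A p-value that misses the threshold does not show that levels were equal, and the 95% intervals give what these mice leave possible. The widest reached down to 0.631-fold for Cass4 and up to 1.33-fold for Sorl1, so no interval of a risk gene reached a 2-fold difference in either direction.

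**Figure D1:**
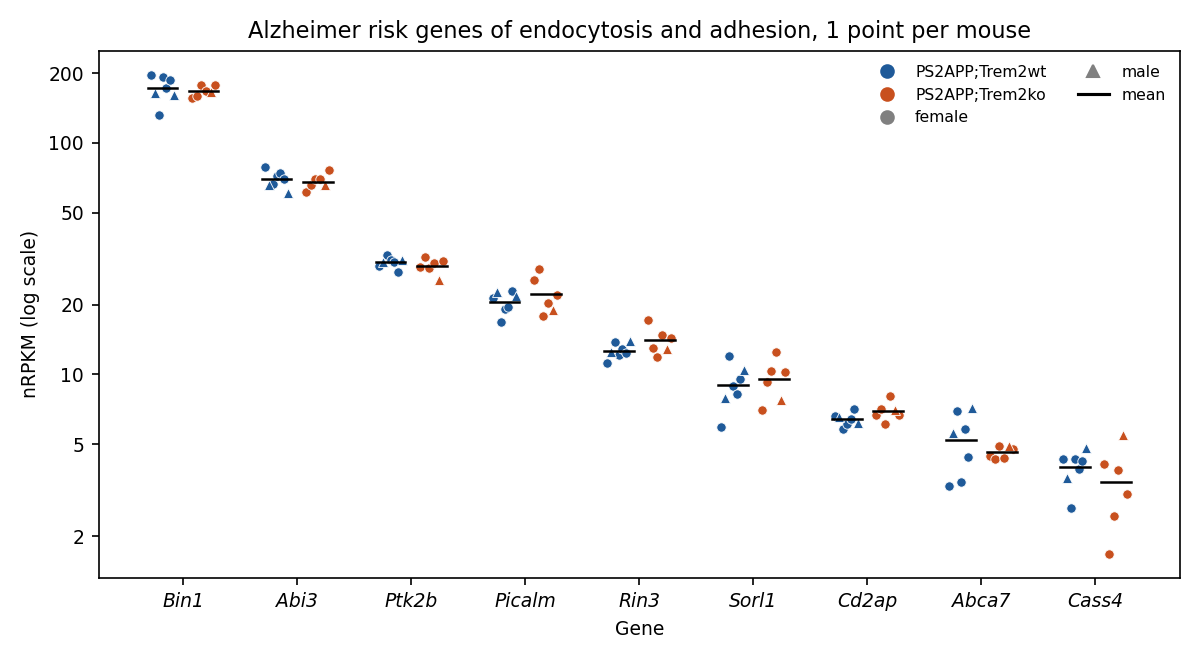
Level of each risk gene in nRPKM on a log axis, with 1 point for each of 7 PS2APP;Trem2wt mice (blue) and 6 PS2APP;Trem2ko mice (orange), triangles for males and a bar at the group mean. Bin1 lies highest at a mean of 170 nRPKM and Cass4 lowest at 3.72 nRPKM, and the points of the genotypes overlap for every gene.

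The risk genes differed far more from each other than between genotypes. Averaged over the 13 mice, Bin1 was the most abundant at 170 nRPKM, above 99.1% of tested genes, and Abi3 followed at 68.9 nRPKM, above 97.2%. Ptk2b (30.0 nRPKM), Picalm (21.3 nRPKM) and Rin3 (13.3 nRPKM) lay between them and a lower group of Sorl1 (9.24 nRPKM), Cd2ap (6.66 nRPKM), Abca7 (4.95 nRPKM) and Cass4 (3.72 nRPKM). From Bin1 to Sorl1 each gene exceeded the next in 13 of 13 mice. The lower neighbours were less separated. Sorl1 exceeded Cd2ap in 12 mice, Cd2ap exceeded Abca7 in 11, and Abca7 exceeded Cass4 in 10. Between Abca7 and Cass4 the mean log2 ratio of 0.44 was smaller than its SD of 0.59 between mice. Whether those levels differed was not tested. The order depended on the gene length used. With CPM divided by the exon length of the GENCODE M21 annotation, Cd2ap moved from place 7 to place 9 at 3.24 CPM per kilobase, Rin3 passed Picalm, and Bin1, Abi3 and Ptk2b stayed the highest.

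The first of the endocytic genes, Bin1, encodes an amphiphysin-family protein that binds and curves membranes. Bin1 (ENSMUSG00000024381, GRCm38 chromosome 18, 32377230 to 32435737, + strand) was 132, 173 and 197 nRPKM at the lowest, median and highest PS2APP;Trem2wt mouse. The same values were 157, 167 and 178 nRPKM in PS2APP;Trem2ko mice. Every PS2APP;Trem2ko mouse lay inside the PS2APP;Trem2wt range. The fold was 0.970 in PS2APP;Trem2ko over PS2APP;Trem2wt microglia (95% interval 0.856 to 1.10, adjusted p = 0.864). With 15559 to 68544 reads per mouse, Bin1 had the most reads of the 9 genes.

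Picalm encodes a clathrin assembly protein that recruits clathrin and AP2 to phosphoinositides at the plasma membrane. Picalm (ENSMUSG00000039361, chromosome 7, 90130213 to 90213465, + strand) was 16.8, 21.5 and 22.9 nRPKM at the lowest, median and highest PS2APP;Trem2wt mouse, and 17.9, 21.1 and 28.5 nRPKM in PS2APP;Trem2ko mice. In 2 PS2APP;Trem2ko mice the level exceeded every PS2APP;Trem2wt mouse, and the other 4 lay within that range. The fold was 1.07 (95% interval 0.914 to 1.26, adjusted p = 0.723). Cd2ap encodes an SH3-domain scaffold that ties membrane receptors and endocytic sites to actin. Cd2ap (ENSMUSG00000061665, chromosome 17, 42792951 to 42876665, - strand) was 5.82, 6.44 and 7.13 nRPKM at the lowest, median and highest PS2APP;Trem2wt mouse, and 6.13, 6.86 and 8.11 nRPKM in PS2APP;Trem2ko mice. A single PS2APP;Trem2ko mouse lay above all PS2APP;Trem2wt mice. The fold was 1.08 (95% interval 0.975 to 1.21, adjusted p = 0.488). Cd2ap lies 5.47 Mb from Trem2 on the same chromosome, in mice whose null allele came from another C57BL/6 substrain, and the part of that in its value was not tested.

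Rin3 encodes a guanine nucleotide exchange factor that switches on RAB5 at early endosomes and had the lowest p-value of the 9 genes. Rin3 (ENSMUSG00000044456, chromosome 12, 102283048 to 102390855, + strand) was 11.2, 12.5 and 13.9 nRPKM at the lowest, median and highest PS2APP;Trem2wt mouse, and 11.9, 13.7 and 17.2 nRPKM in PS2APP;Trem2ko mice. In 3 of 6 PS2APP;Trem2ko mice it exceeded every PS2APP;Trem2wt mouse. The fold was 1.10 (95% interval 0.975 to 1.25), with an adjusted p of 0.461. Sorl1 encodes a VPS10-domain sorting receptor that returns cargo such as the amyloid precursor protein from endosomes with retromer. Sorl1 (ENSMUSG00000049313, chromosome 9, 41964720 to 42124297, - strand) was 5.92, 8.90 and 11.99 nRPKM at the lowest, median and highest PS2APP;Trem2wt mouse, and 7.05, 9.76 and 12.5 nRPKM in PS2APP;Trem2ko mice. The ranges nearly coincided, with high and low mice in both genotypes. The fold was 1.06 (95% interval 0.842 to 1.33, adjusted p = 0.868), and the log2 value turned from 0.08 to -0.02 without PS2APP;Trem2ko mouse 4 and to just under 0 without PS2APP;Trem2wt mouse 1.

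Abca7 encodes an ATP-driven phospholipid transporter linked to phagocytosis, and its levels were scattered in PS2APP;Trem2wt mice and close together in PS2APP;Trem2ko mice. Abca7 (ENSMUSG00000035722, chromosome 10, 79996494 to 80015572, + strand) was 3.31, 5.60 and 7.14 nRPKM at the lowest, median and highest PS2APP;Trem2wt mouse, and 4.31, 4.61 and 4.93 nRPKM in PS2APP;Trem2ko mice. All 6 PS2APP;Trem2ko mice lay inside the PS2APP;Trem2wt range. The coefficient of variation was 29.8% in PS2APP;Trem2wt and 6.23% in PS2APP;Trem2ko mice, a difference in spread that was not tested. The 2 highest PS2APP;Trem2wt values came from the libraries with the most counts of that genotype, 114857155 and 79883820. In PS2APP;Trem2ko mice the libraries with the most and the fewest counts, 120569609 and 41567025, had 4.458 and 4.933 nRPKM. The part of depth in the Abca7 values was not tested. The fold was 0.879 (95% interval 0.689 to 1.12, adjusted p = 0.653).

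Abi3 encodes a subunit of the WAVE complex, which switches on ARP2/3 to build branched actin, and is expressed in the brain mainly by microglia. Abi3 (ENSMUSG00000018381, chromosome 11, 95830074 to 95842476, - strand) was 60.5, 70.0 and 78.5 nRPKM at the lowest, median and highest PS2APP;Trem2wt mouse, and 61.1, 67.9 and 76.4 nRPKM in PS2APP;Trem2ko mice. Again every PS2APP;Trem2ko mouse lay inside the PS2APP;Trem2wt range. The fold was 0.977 (95% interval 0.880 to 1.08, adjusted p = 0.877). The Abi3 level carries an uncertainty of annotation: 70.14% of its exonic bases overlap exons of Zfp652 on the opposite strand, 41.13% overlap Phospho1 and 5.63% overlap Gngt2, and whether the counting used the strand is not given in the sources used here. Those neighbours were lower than Abi3, with means of 7.25 nRPKM for Zfp652, 0.926 nRPKM for Phospho1 and 28.5 nRPKM for Gngt2. None of them passed edgeR's test between genotypes (adjusted p = 0.366 for Zfp652, 0.427 for Phospho1 and 0.415 for Gngt2).

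Cass4 encodes a scaffold of the CAS family that focal adhesion kinases phosphorylate. It was the lowest of the 9 genes in nRPKM and the most variable over all 13 mice. In PS2APP;Trem2wt mice alone Abca7 varied more, with a coefficient of variation of 29.8% against 17.4% for Cass4. Cass4 (ENSMUSG00000074570, chromosome 2, 172393794 to 172433757, + strand) was 2.65, 4.23 and 4.79 nRPKM at the lowest, median and highest PS2APP;Trem2wt mouse, and 1.68, 3.45 and 5.48 nRPKM in PS2APP;Trem2ko mice. The PS2APP;Trem2ko mice lay on both sides, with 2 below and 1 above every PS2APP;Trem2wt mouse. The fold was 0.867 (95% interval 0.631 to 1.19, adjusted p = 0.715). Across all mice the highest Cass4 level was 3.26 times the lowest, and 21.16% of its exonic bases overlap the antisense transcript Gm14455, which had 5 to 51 reads per mouse against 738 to 4865 for Cass4. Ptk2b encodes Pyk2, a calcium-responsive kinase related to focal adhesion kinase. Ptk2b (ENSMUSG00000059456, chromosome 14, 66153257 to 66281052, - strand) had the narrowest range of the 9 genes, with 27.6, 30.7 and 32.9 nRPKM at the lowest, median and highest PS2APP;Trem2wt mouse and 25.7, 29.7 and 32.0 nRPKM in PS2APP;Trem2ko mice. Only the lowest PS2APP;Trem2ko mouse fell outside the PS2APP;Trem2wt range, and the highest level was 1.28 times the lowest. The fold was 0.963 (95% interval 0.876 to 1.06, adjusted p = 0.749).

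**Figure D2:**
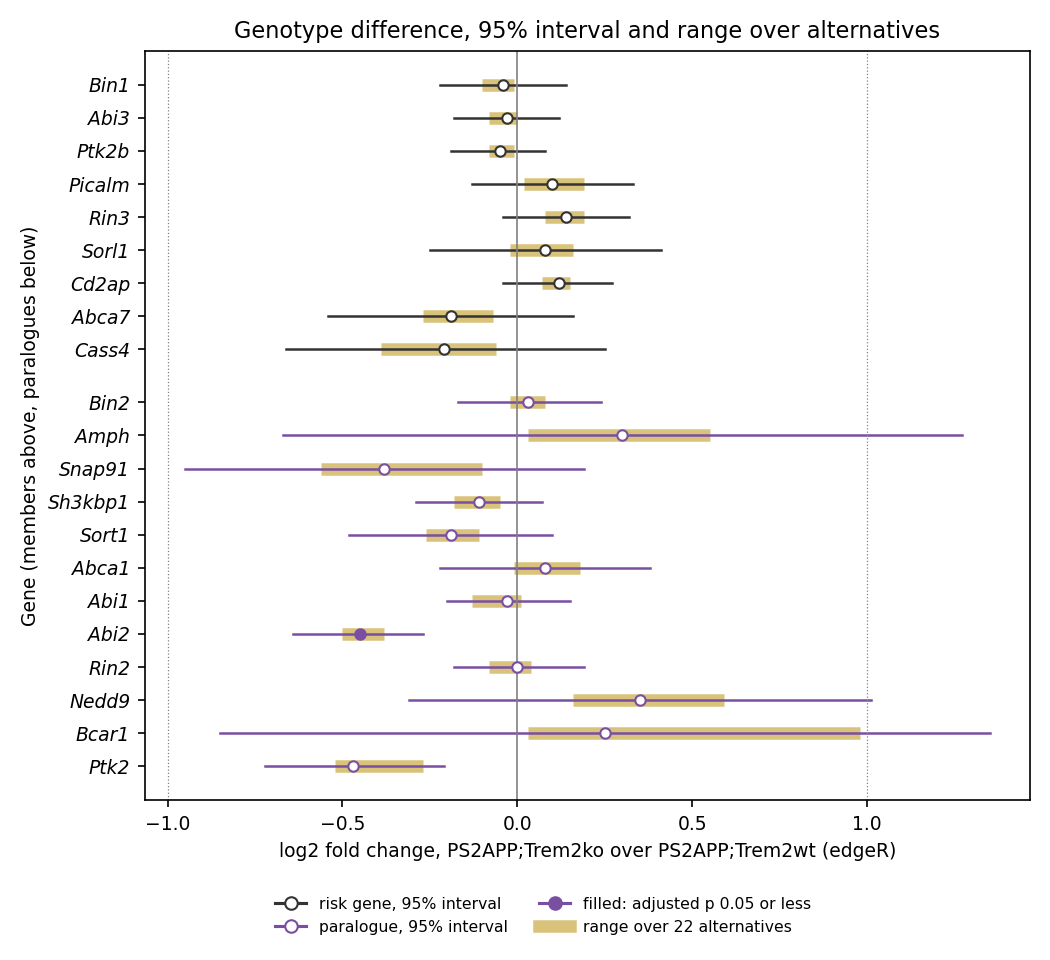
Log2 fold change of PS2APP;Trem2ko over PS2APP;Trem2wt microglia from edgeR for the 9 risk genes (black) and their 12 paralogues (purple), with 95% intervals, the range over 22 alternative analyses (yellow) and dotted lines at a 2-fold change. The interval of every risk gene crosses 0, and Abi2 is the only filled point, at -0.45.

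The mice did not rank alike across the risk genes. PS2APP;Trem2wt mouse 1 had the highest Bin1 and Abi3 levels of all mice and was among the 2 lowest for Sorl1, Abca7 and Rin3. PS2APP;Trem2wt mouse 3 was among the 2 lowest for Bin1, Picalm and Cd2ap and among the 2 highest for Sorl1, Abca7 and Ptk2b. PS2APP;Trem2ko mouse 3 was among the 2 lowest for 4 genes, Picalm, Cd2ap, Rin3 and Cass4. No mouse was thus high or low for the whole set.

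The sexes were compared with genotype in the model, over 3 males and 10 females. By edgeR 0 of 9 risk genes were called, against 0.0234% of tested genes, and 0 of 9 had an unadjusted p under 0.05, against 6.95% of tested genes. The largest estimates were for Cass4 and Abca7, both higher in males. Cass4 was 4.62 nRPKM on average in males (3.59 to 5.48) and 3.45 nRPKM in females (1.68 to 4.32), a log2 difference of 0.43 (95% interval -0.07 to 0.92, adjusted p = 0.762). Abca7 was 5.89 nRPKM in males (4.93 to 7.14) and 4.67 nRPKM in females (3.31 to 6.92), a log2 difference of 0.31 (95% interval -0.08 to 0.71, adjusted p = 0.789). With 1 PS2APP;Trem2ko male, the genotypes were not compared within males.

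Each risk gene was then set beside its closest paralogues, which differ in tissue distribution and can share its function. Microglia expressed Bin1 and its haematopoietic relative Bin2 together, and Bin2 was the higher in 13 of 13 mice, at a mean of 270 nRPKM. The neuronal amphiphysin Amph was at 0.117 nRPKM, far below Bin1. Likewise the clathrin assembly gene Picalm was 60.8 times its neuronal paralogue Snap91. For 4 more risk genes a paralogue was the higher in every mouse. Sh3kbp1, the CIN85 adaptor, was 2.91 times Cd2ap. Sort1, which encodes sortilin, was 4.66 times Sorl1. The RAB5 exchange factor Rin2 was 6.94 times Rin3, and the cholesterol exporter Abca1 was 9.95 times Abca7. Folds between paralogues, here and below, rest on nRPKM and so depend on the gene length used, like the order above.

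In the adhesion and actin families the risk gene was the main member. Ptk2b was 19.1 times Ptk2, the gene of focal adhesion kinase, and higher in 13 of 13 mice. Cass4 was 25.7 times Bcar1 in 13 of 13 mice and 3.57 times Nedd9 in 12 of 13. Abi3 was 2.22 times Abi1 and 12.9 times Abi2, higher than either in every mouse. Its level over its own antisense neighbours bears on those ratios as given above.

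**Figure D3:**
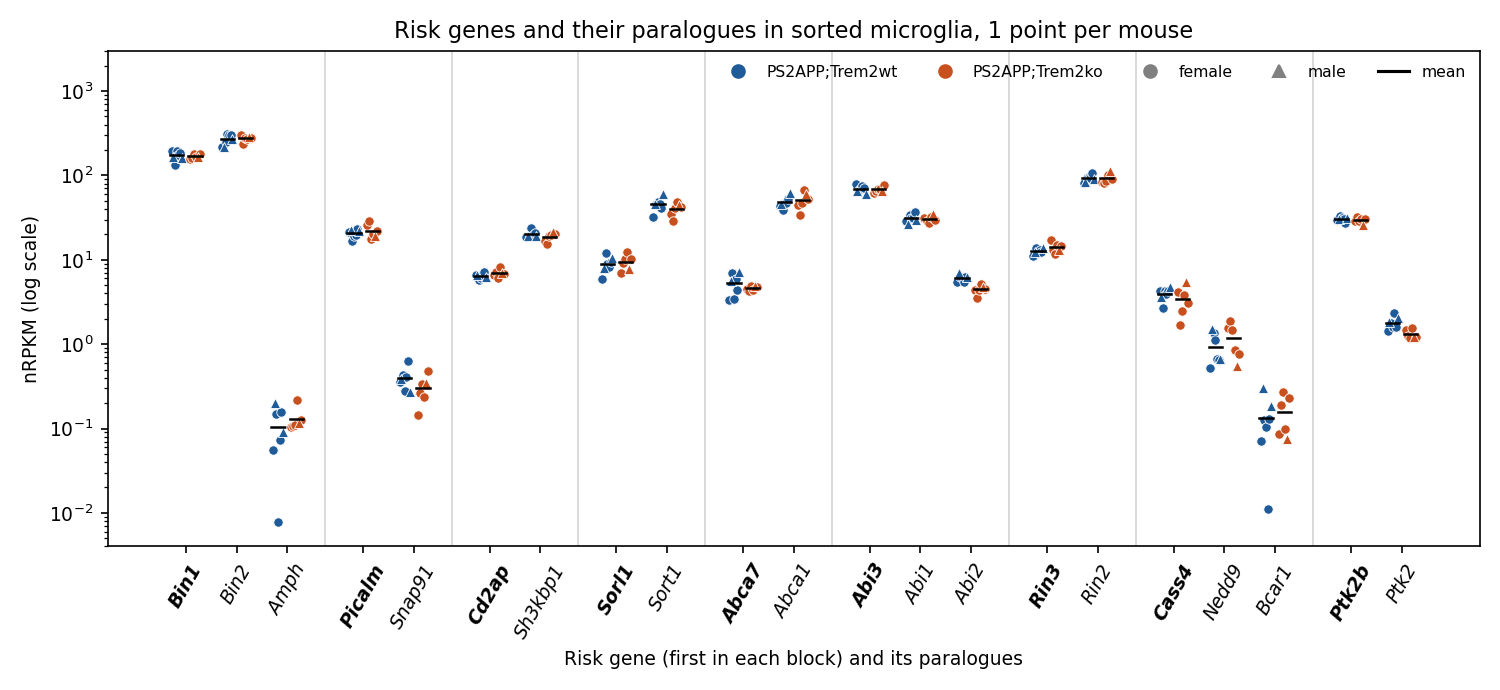
Levels in nRPKM on a log axis of each risk gene (bold) and its paralogues, with 1 point per mouse, blue for PS2APP;Trem2wt, orange for PS2APP;Trem2ko, triangles for males and a bar at the group mean. Bin2, Sh3kbp1, Sort1, Abca1 and Rin2 lie above their risk gene, Abi3, Cass4, Ptk2b and Picalm lie above theirs, and Abi2 is the paralogue whose genotypes do not overlap.

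Of the 12 paralogues, 1 differed between genotypes in edgeR's test, against 2.04% of all tested genes called. That gene, Abi2, was added to the paralogues after its value was seen, so the count is no result about paralogues. Abi2, which takes the same place as Abi3 in the WAVE complex, was 5.39, 6.19 and 6.91 nRPKM at the lowest, median and highest PS2APP;Trem2wt mouse, and 3.51, 4.46 and 5.16 nRPKM in PS2APP;Trem2ko mice. Every PS2APP;Trem2ko mouse lay below every PS2APP;Trem2wt mouse. Its log2 fold change was -0.45 (95% interval -0.64 to -0.27, adjusted p = 0.0117), and it was called with each mouse left out in turn (adjusted p 0.00898 to 0.0319) but not in females alone (adjusted p = 0.0571). Ptk2 was 1.80 ± 0.308 nRPKM (SD, n = 7) in PS2APP;Trem2wt and 1.31 ± 0.153 nRPKM (SD, n = 6) in PS2APP;Trem2ko microglia. The Ptk2 difference of -0.47 on the log2 scale did not pass in edgeR (adjusted p = 0.0628) and passed in voom+limma (0.0414) and DESeq2 (0.00830). Ptk2 was called in 3 of the 22 alternative analyses, and in 1 of the 13 fits with a mouse left out.

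The balance within each family was compared as the log2 ratio of risk gene to paralogue in each mouse, with an exact permutation test, two-sided and enumerating 1716 splits of the mice. The ratio of Ptk2b to Ptk2 was higher by 0.37 in PS2APP;Trem2ko mice (exact p = 0.00583), and that of Abi3 to Abi2 was higher by 0.41 (exact p = 0.00932). Adjusted over the 12 pairs tested, both had p = 0.0559 by the same exact test and did not pass. The ratios were taken up after the values of Abi2 and Ptk2 were seen, so these p-values give no independent support. In the other 10 pairs the lowest exact p was 0.0664, for Cd2ap over Sh3kbp1, and the genotypes overlapped in all 12 pairs.

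The genes that work with the risk genes were described in 7 lists of 197 genes, of which 189 were tested. The median log2 fold change of every list was between -0.06 and 0.03, against 0.00 for all tested genes. Among the tested list genes edgeR called 12, voom+limma 13 and DESeq2 16, against the shares of all genes given above. Of those 12, 11 were lower and 1 was higher in PS2APP;Trem2ko microglia, and of all tested genes 1.53% were called lower and 0.503% higher.

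**Figure D4:**
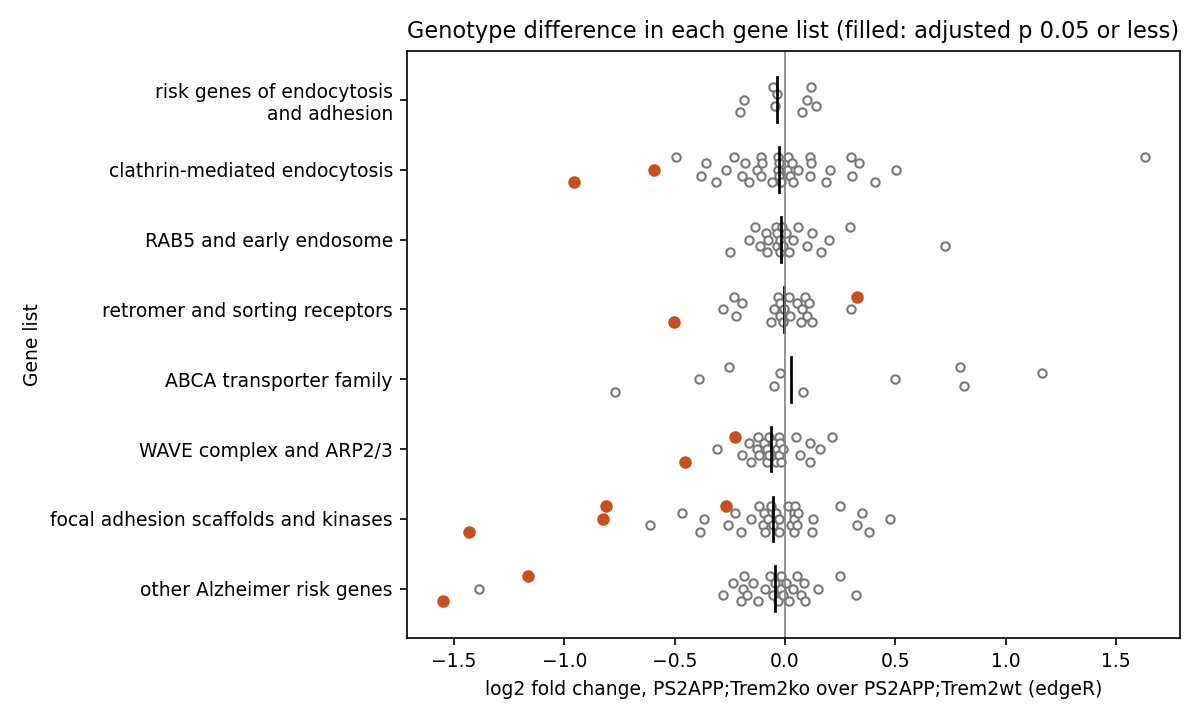
Log2 fold change of PS2APP;Trem2ko over PS2APP;Trem2wt microglia from edgeR for each tested gene of the 9 risk genes and of 7 lists of related genes, with a bar at each list's median and filled points at an adjusted p of 0.05 or less. The risk genes lie between -0.21 and 0.14 with no filled point, and the lists hold from 0 to 4 filled points each.

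Of 38 genes of clathrin-mediated endocytosis, in which Bin1, Picalm and Cd2ap act, 2 were called lower, 0 were called higher, and the median was -0.03. Hip1, which couples clathrin coats to actin, fell from 1.18 ± 0.242 (SD, n = 7) to 0.611 ± 0.211 nRPKM (SD, n = 6), a log2 change of -0.95 (SE 0.21, adjusted p = 0.0263). Its call was lost without PS2APP;Trem2ko mouse 2 or 3 or PS2APP;Trem2wt mouse 3, with an adjusted p of at most 0.0619, and in females alone (adjusted p = 0.112). Snx18, a membrane-tubulating sorting nexin, fell from 70.3 ± 16.5 (SD, n = 7) to 46.6 ± 5.11 nRPKM (SD, n = 6), a log2 change of -0.59 (SE 0.14, adjusted p = 0.0401). The Snx18 call held in 4 of 13 fits with a mouse left out (adjusted p 0.0097 to 0.0986).

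Among 24 genes of RAB5 and the early endosome, the setting of Rin3, edgeR called 0, 2 had an unadjusted p under 0.05, voom+limma and DESeq2 called 0, and the median was -0.02. Among 23 tested genes of retromer and sorting receptors, the partners of Sorl1, 1 was called lower and 1 higher, with a median of -0.01. Lrpap1, a chaperone of lipoprotein receptors, fell from 105 ± 16.7 (SD, n = 7) to 74.3 ± 4.82 nRPKM (SD, n = 6), with no overlap between genotypes and a log2 change of -0.50 (SE 0.09, adjusted p = 0.0105). It was called with each mouse left out in turn. Gga3, an adaptor of endosomal sorting, rose from 10.2 to 14.7 nRPKM in PS2APP;Trem2wt mice to 15.4 to 17.0 nRPKM in PS2APP;Trem2ko mice, again without overlap, a log2 change of 0.32 (SE 0.08, adjusted p = 0.0409). The Gga3 call held in 4 of 13 fits with a mouse left out (adjusted p 0.0223 to 0.0878), and was lost without an expression filter and in females alone.

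Of 10 tested transporters of the ABCA family, that of Abca7, edgeR and voom+limma called 0 and DESeq2 called 1, and 2 had an unadjusted p under 0.05 in edgeR. The DESeq2 call was Abca2, with a log2 change of -0.77 in edgeR (adjusted p = 0.0609 in edgeR and 0.00361 in DESeq2). Of 28 genes of the WAVE complex and its partners, the setting of Abi3, 2 were called lower and 0 higher, with a median of -0.06. Estimates were below 0 for 22 of the 28, called or not, against 8420 of all 17086 tested genes. Besides Abi2, the GTPase Rac1 that switches on the complex fell from 44.9 ± 3.05 (SD, n = 7) to 38.4 ± 0.952 nRPKM (SD, n = 6) without overlap, a log2 change of -0.23 (SE 0.06, adjusted p = 0.0483). The Rac1 call was lost whichever mouse was left out (adjusted p 0.0536 to 0.0984), and also with RLE scaling, under either other filter and in females alone, at an adjusted p of at most 0.182.

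The list of focal adhesion scaffolds and kinases, the partners of Cass4 and Ptk2b, had 4 of 37 tested genes called lower, 0 higher and a median of -0.05. The count was 5 without PS2APP;Trem2wt mouse 1 and 1 or 2 without any other mouse. Fgr, a myeloid Src-family kinase, fell from 6.19 ± 2.90 (SD, n = 7) to 2.31 ± 0.978 nRPKM (SD, n = 6), a log2 change of -1.43 (SE 0.29, adjusted p = 0.0165) that was called with each mouse left out and not in females alone (adjusted p = 0.0629). Fgr is also expressed by neutrophils, which the Ly6g gate was set to remove, and all 5 tested neutrophil markers of 8 had estimates below 0, with none called and summed levels of 13.2 to 246 nRPKM in PS2APP;Trem2wt and 0.266 to 40.8 nRPKM in PS2APP;Trem2ko mice. Those sums were highest in PS2APP;Trem2wt mouse 2 and the Fgr level in PS2APP;Trem2wt mouse 3, and the part of neutrophils in the Fgr value was not tested. Fyn, another Src-family kinase, fell from 6.93 ± 1.90 to 3.92 ± 1.03 nRPKM (adjusted p = 0.0452). Crkl, the adaptor that binds CAS scaffolds, fell from 17.2 ± 0.837 to 14.3 ± 1.22 nRPKM (adjusted p = 0.0435). Arhgap26, whose protein binds focal adhesion kinases, fell from 1.31 ± 0.428 to 0.753 ± 0.143 nRPKM (adjusted p = 0.0381). With a mouse left out, Arhgap26 was called in 3 of 13 fits and Fyn and Crkl in 2 each. All 3 calls were also lost with sex in the model. Over all 22 alternatives the adjusted p was at most 0.137 for Arhgap26, 0.150 for Fyn and 0.110 for Crkl.

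Of 29 tested genes from other Alzheimer's disease risk loci, 2 were called lower and 0 higher, with a median of -0.04. Adamts1, a secreted metalloprotease, fell from 4.55 ± 0.958 (SD, n = 7) to 2.03 ± 0.470 nRPKM (SD, n = 6) without overlap, a log2 change of -1.16 (SE 0.16, adjusted p = 0.000947). Treml2, a receptor gene of the Trem2 locus on chromosome 17, fell from 2.32 ± 0.541 (SD, n = 7) to 0.796 ± 0.421 nRPKM (SD, n = 6) without overlap, a log2 change of -1.55 (SE 0.32, adjusted p = 0.0180). Both were called with each mouse left out in turn. Treml2 lies 0.03 Mb from Trem2, beside the targeted allele. The study left out Treml1 as an artifact of the inserted knockout cassette. The part of the allele or its flanking DNA in the Treml2 value was not tested. In these mice it cannot be told apart from loss of Trem2.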

How the data were processed

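RNA from sorted brain myeloid cells of 13 mice was sequenced as single-end reads from SMART-seq v4 libraries. GSNAP was the authors' aligner and GRCm38 their genome, as the submitters' processing notes also say without versions. Adapters, poor-quality sequence and rRNA had been removed beforehand. Per the deposited files, each gene has a raw count of reads without normalization. The authors also deposited nRPKM, an RPKM scaled by a DESeq-type size factor, and the RPKM values were used here for levels and the counts for all tests. Symbols were matched for 52403 of 52636 identifiers from GENCODE M21 on GRCm38, which also gave the coordinates and exon overlaps.

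Groups were taken from the genotype labels. Genes were filtered with filterByExpr by genotype, scaled by TMM and compared with edgeR 4.0.16 (glmQLFit and glmQLFTest, R 4.3.3) without covariates, as the study names none for its voom+limma test. The study describes generally handling mice in pairs of opposite genotype up to the sort and breeding for littermates, but the labels do not say which mice belong together, so the tests and intervals ignore any such pairing. P-values were given with Benjamini-Hochberg adjustment over all tested genes. The common BCV (biological coefficient of variation) was 0.299. A standard error is the size of the log2 fold change divided by the square root of its F statistic. Alternatives were voom+limma (limma 3.58.1, the study's tool), DESeq2 1.42.0, RLE scaling, limma on the log2 of nRPKM plus 0.1 or plus 1, a model with sex, the female mice alone, no expression filter or a minimum of 10 counts in 6 mice, and leaving out each mouse, which made 22 fits. The edgeR, voom+limma and DESeq2 genotype fits were tested on simulated data drawn from the real means, with known changes. The other alternatives were not. False calls in the simulated data numbered 6 for edgeR, 7 for voom+limma and 34 for DESeq2, over 16740 genes. Exact permutation tests were two-sided (Python 3.11.15, scipy 1.17.1).

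The 9 genes, the related lists and the paralogues were chosen with earlier results of these data known, so nothing in that choice is independent support. Named besides the 9 were Trem2, the genes of each list called in edgeR, the closest paralogues, and genes whose exons overlap. Abi2 as a paralogue, Abca2, and the ratios between paralogues were taken up after their values were seen. In 36 same-genotype pairs of mice, the counts differed by at least 18.1 times the chi-square of sampling noise, so no library was counted as a repeat of another. Total counts ranged from 26120961 to 120569609 per mouse, and each risk gene had at least 738 reads in every mouse, so counting error was small beside the spread between mice.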

Additional observations from a re-analysis of the deposited data

Results flagged for a closer look

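No risk gene had a mouse far from the others of its genotype. Dixon's test was run on 64 groups of mice, over the 9 risk genes and part of the other named genes. Of these groups, 4 held a mouse whose gap to the rest was large for the group's range, and chance gives about 1 in 20. Amph was 0.217 nRPKM in PS2APP;Trem2ko mouse 4 and 0.105 to 0.125 in the other 5. Sh3kbp1 was 24.1 nRPKM in PS2APP;Trem2wt mouse 4 and 18.4 to 20.8 in the other 6. Fgr was 12.2 nRPKM in PS2APP;Trem2wt mouse 3 and 3.93 to 7.01 in the other 6. Arhgap26 was 2.17 nRPKM in PS2APP;Trem2wt mouse 2 and 0.895 to 1.37 in the other 6. Apart from those 4, the residual Trem2 level was 2.292 nRPKM in PS2APP;Trem2ko mouse 4 and 0.3926 to 0.9792 in the other 5.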

How the results depend on the processing

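The count of risk genes called was 0 in all 22 alternative analyses of genotype, with or without the 2-fold minimum, and 0 in all alternatives tried for the sexes, and it was 0 to 0 with each mouse left out. The adjusted p of a risk gene ranged from 0.299 to 0.995 over those analyses. Of the log2 fold changes of the 9 genes, that of Sorl1 changed sign, to -0.0 without PS2APP;Trem2wt mouse 1 and to -0.02 without PS2APP;Trem2ko mouse 4, and ranged up to 0.16 with a mouse left out. The called genes of the related lists were less steady. When mice were left out 1 at a time, the calls numbered 0 to 2 for clathrin-mediated endocytosis, 1 to 2 for retromer, 0 to 1 for the ABCA family, 1 in every fit for the WAVE complex, 1 to 5 for focal adhesion, 0 for RAB5 and 2 for other risk loci. DESeq2 called 1 ABCA gene where edgeR called 0. Over all tested genes, leaving out a mouse gave between 244 and 357 calls, against 348 with every mouse. No paired analysis was possible because the labels give no replicate numbers, litters or sort days, although the study says that mice were generally processed in genotype pairs. Depth limited no risk gene, whereas 7 PS2APP;Trem2wt and 6 PS2APP;Trem2ko mice set the width of the intervals. Isoforms were not measured.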

Other observations

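Reads were also counted in 4 unclassified gene models, Gm45220 to Gm45223, which lie within the span of Picalm on the same strand and share 0 exonic bases with it. They were picked after their values were seen. Their summed counts were 35.2%, 48.8% and 51.4% of the Picalm count at the lowest, median and highest PS2APP;Trem2wt mouse, and 40.2%, 54.5% and 69.1% in PS2APP;Trem2ko mice (two-sided exact permutation p = 0.0851). The log2 difference of Gm45220 was 0.76 (SE 0.22), higher in PS2APP;Trem2ko mice, with an adjusted p of 0.0998 in edgeR, and the other 3 models had adjusted p-values of 0.344 to 0.868.

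Several relatives of the risk genes were close to undetected in these cells. Mean levels over the 13 mice were 0.114 nRPKM for Rin1, 0.0294 nRPKM for the CAS-family gene Efs, and 0.00817, 0.0406 and 0.0281 nRPKM for the VPS10 receptors Sorcs1, Sorcs2 and Sorcs3. Rinl, a further RAB5 exchange factor, was at 16.2 nRPKM, above Rin3, and its log2 difference between genotypes was -0.14 (SE 0.07), with an adjusted p of 0.355 in edgeR.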
